A study of Capra hircus with 6 samples.

Results

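Transcripts of the cholesterol and fatty acid synthesis pathways were measured in the goat (Capra hircus) cell line mGSCs-I-SB after knockdown of either of a pair of proteostasis genes. The genes came from a list of enzymes and regulators of these pathways, among them targets of the sterol regulatory element binding proteins (SREBPs). Its 35 symbols were matched to the gene symbols of the deposited table. Of these, 34 carried values, out of 16599 genes with values, and IDI1 was not analysed here. They fall into a sterol branch of 17 genes, a fatty acid branch of 11 genes and a set of 6 regulators and transport genes. The line is labelled spermatogonial stem cells, which renew themselves and give rise to sperm. Lines carried hairpin RNA against UCHL1, a ubiquitin C-terminal hydrolase (shUCHL1, genotype label UCHL1 knockdown), against HSPA8, the constitutive HSP70 chaperone of the cytosol (shHSPA8, genotype label HSPA8 knockdown), or control hairpin RNA (shCON, genotype label WT), with 2 libraries each. All lines grew in DMEM/F12 with 10% fetal bovine serum, so serum lipids were present throughout. The labels give neither the number of hairpins per gene nor whether a line is 1 clone or a pool, and each gene has 1 knockdown line, set against 1 control line.

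Animal cells make cholesterol from acetyl-CoA by way of mevalonate, farnesyl diphosphate, squalene and lanosterol, and they make fatty acids from the same acetyl-CoA by way of malonyl-CoA. SREBPs are membrane-bound transcription factors that SCAP carries from the endoplasmic reticulum to the Golgi, where proteases release the active part. When sterols are plentiful, INSIG proteins hold SCAP back. INSIG1 is itself an SREBP target, SREBP-2 (gene SREBF2) acts mainly on sterol genes and SREBP-1 (gene SREBF1) mainly on fatty acid genes. In the testis, cholesterol is also the starting material of steroid hormones.

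The libraries held 1.57e+07 to 1.64e+07 counted reads each, and all 34 genes of the list were among the 12665 that passed the low-count filter. Levels are CPM, that is read counts divided by each library's TMM-scaled total. The first of each pair of values is replicate 1, and a gene is called changed at an adjusted p under 0.05 (edgeR quasi-likelihood test, Benjamini-Hochberg over all tested genes). The targeted genes checked the labels: UCHL1 stood at 94.3 and 97.7 CPM in shUCHL1, 386 and 334 CPM in shHSPA8 and 405 and 451 CPM in shCON, and HSPA8 at 5252 and 5345 CPM in shUCHL1, 2631 and 2528 CPM in shHSPA8 and 4016 and 4112 CPM in shCON. Of 30 markers of spermatogonial stem cells and other germ cells, 19 carried values and 9 exceeded 1 CPM in every library. Among these 9 were CD9, between 181 and 209 CPM, and ITGB1, whose values are given below. ZBTB16, SALL4, LIN28A, NANOS2, DAZL and STRA8 carried no values, the germ cell helicase DDX4 stayed between 0.428 and 1.96 CPM and the receptor GFRA1 between 0.180 and 1.08 CPM. Of 16 markers of peritubular myoid cells and fibroblasts, 14 exceeded 1 CPM in every library. In a chi-square test of the replicates' counts, the statistic per degree of freedom, which is near 1 where only sampling noise separates them, was 2.38 in shUCHL1, 11.9 in shHSPA8 and 22.1 in shCON, so no library was taken for a copy of another. The labels do not state whether replicates are separate cultures, and p-values then reflect no more than the difference between replicate libraries, perhaps a technical one.

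Most lipid synthesis transcripts were lower in each knockdown line than in the control line. In shUCHL1, 23 of the 34 genes were called lower and 0 higher, where 7.15% of all tested genes were called lower and 8.54% higher. In shHSPA8, 22 of 34 were called lower and 0 higher, where 6.02% of all tested genes were called lower and 8.66% higher. The median log2 fold change of the 34 genes was -0.54 in shUCHL1 and -0.58 in shHSPA8, against 0.01 and 0.00 for all tested genes. Summed over the 34 genes, the level was 3217 and 3219 CPM in shUCHL1, 3253 and 3369 CPM in shHSPA8 and 4783 and 4600 CPM in shCON. All knockdown libraries therefore lay below the control libraries in the sum. Taken one by one, 28 genes had both shUCHL1 libraries below both shCON libraries and 2 had them above, where 27.0% and 29.5% of all tested genes did. For shHSPA8, 27 genes lay below and 1 above, where 24.9% and 26.1% of all tested genes did. Both comparisons use the same shCON libraries, and with 1 control line, an odd shCON line cannot be told apart from changes in the knockdown lines. In bulk RNA, fewer cells of a type and less RNA per cell cannot be told apart either.

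**Figure D1:**
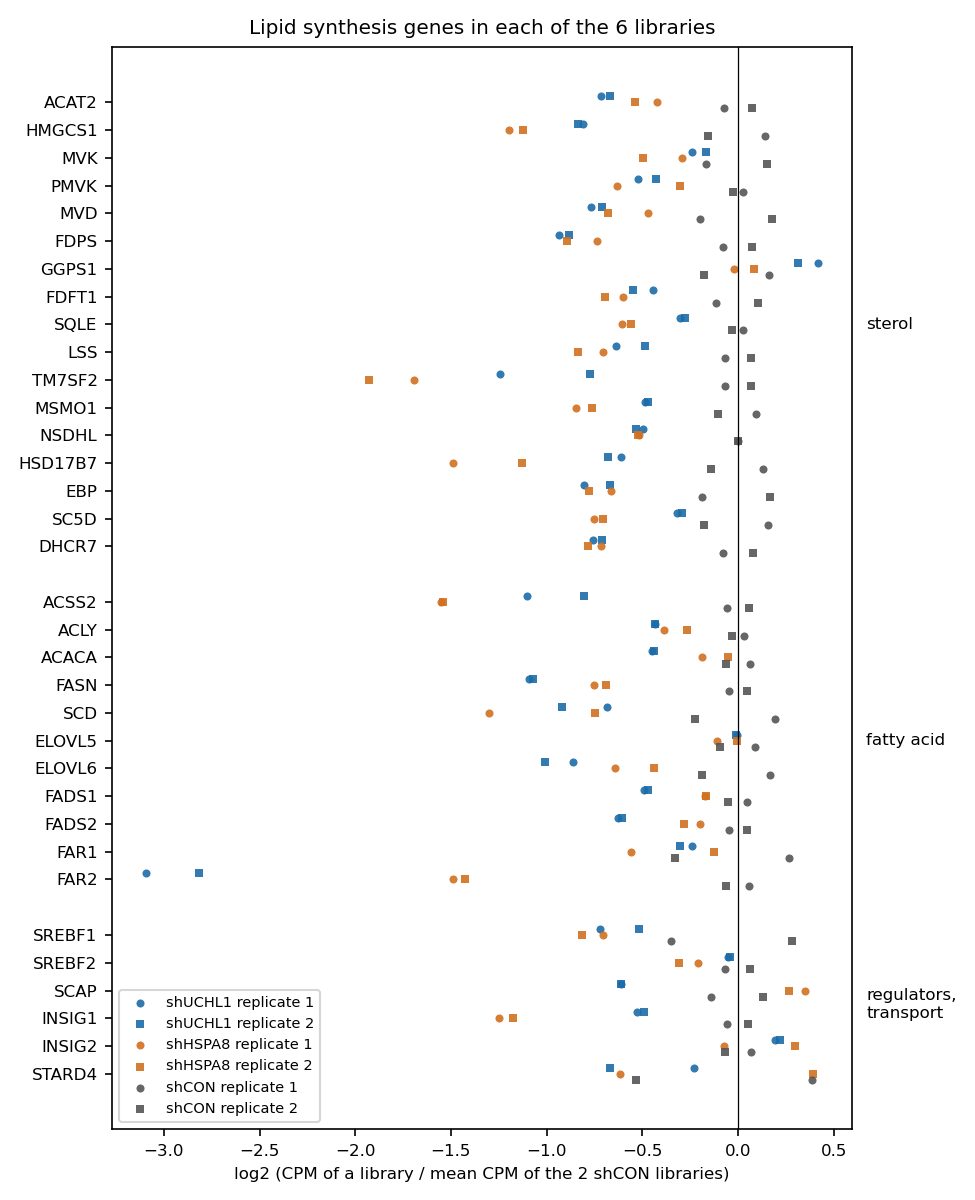
Level of each of the 34 genes in each of the 6 libraries, as log2 of its CPM over the mean CPM of the 2 shCON libraries, with the genes in pathway order down the page. Most shUCHL1 and shHSPA8 points lie left of 0, FAR2 in shUCHL1 lies farthest left, and STARD4 and FAR1 show wide gaps between the replicates of shHSPA8 and of shCON.

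The counts of called genes depended on single libraries. Without shUCHL1 replicate 1, 5 of the 34 genes were called lower in shUCHL1, and without shUCHL1 replicate 2, 6 were, where 1.45% and 1.51% of all tested genes were called lower. The median log2 fold change in shUCHL1 was then -0.56 and -0.62 for the sterol branch, and -0.62 and -0.65 for the fatty acid branch. Without shHSPA8 replicate 1 and without shHSPA8 replicate 2, 13 were called lower in shHSPA8, where 2.09% and 2.28% of all were, with sterol medians of -0.71 and -0.66 and fatty acid medians of -0.28 and -0.56. Each such fit leaves 1 library in the line, whose unseen spread is taken to equal that of the remaining lines. Scaled by library size alone, 21 genes of the list and 5.06% of all tested genes were called lower in shUCHL1, and 10.8% of all were called higher.

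Marker lists of other cell types held called genes too, and for some lists the sum and the median log2 fold change went in opposite directions. Their counts stand against 8.54% of all tested genes called higher and 7.15% called lower in shUCHL1. In shHSPA8 these shares were 8.66% and 6.02%. The summed level of 11 leukocyte markers, 10 of them with values, was 177 and 191 CPM in shUCHL1, 307 and 301 CPM in shHSPA8 and 501 and 507 CPM in shCON, carried by LCP1, while the defining marker PTPRC stayed between 0 and 0.190 CPM in all 6 libraries. CD14 went the other way from the sum, with 44.5 and 50.5 CPM in shUCHL1, 55.8 and 61.2 CPM in shHSPA8 and 34.6 and 37.3 CPM in shCON. Of the 5 tested in this list, 0 were called higher and 2 lower in shUCHL1, and 1 higher and 1 lower in shHSPA8. Their median log2 fold changes were -0.28 and 0.14, with 3 of the 5 below 0 in shUCHL1 and 2 in shHSPA8. For 18 Sertoli cell markers, 13 with values, the sum was 246 and 243 CPM in shUCHL1, 202 and 248 CPM in shHSPA8 and 315 and 282 CPM in shCON. Of the 10 tested in this list, 1 was called higher and 5 lower in shUCHL1, and 0 higher and 4 lower in shHSPA8, with median log2 fold changes of -0.45 and -0.54. For the 30 germ cell markers it was 3289 and 3248 CPM in shUCHL1, 3630.0 and 4034 CPM in shHSPA8 and 5361 and 4313 CPM in shCON, carried by the integrin ITGB1 with 2803 and 2750 CPM in shUCHL1, 3007 and 3404 CPM in shHSPA8 and 4826 and 3778 CPM in shCON. The sum was lowest in shUCHL1, whereas more of the list was called higher than lower there. Of the 14 tested in this list, 6 were called higher and 2 lower in shUCHL1, and 2 higher and 0 lower in shHSPA8, with median log2 fold changes of 0.48 and 0.20. The 9 endothelial markers, 8 with values, summed to 39.6 and 41.1 CPM in shUCHL1, 58.4 and 57.8 CPM in shHSPA8 and 87.0 and 83.1 CPM in shCON. EMCN, called lower in each line, had 8.12 and 9.59 CPM in shUCHL1, 7.52 and 6.98 CPM in shHSPA8 and 52.3 and 49.6 CPM in shCON, and ERG, called higher in shHSPA8, averaged 27.0 ± 0.711 in shUCHL1, 46.8 ± 0.0249 in shHSPA8 and 31.2 ± 1.10 in shCON (CPM, SD, n = 2 each). Of the 6 tested in this list, 1 was called higher and 1 lower in shUCHL1, and 2 higher and 1 lower in shHSPA8, with median log2 fold changes of 0.57 and 0.32. The 10 Leydig cell markers, 5 with values, stayed between 90.4 and 104 CPM in all libraries. Of the 4 tested in this list, 1 was called higher and 0 lower in shUCHL1, and 0 higher and 1 lower in shHSPA8, with median log2 fold changes of -0.03 and -0.01. The 16 markers of peritubular myoid cells and fibroblasts summed to 33690 and 34380 CPM in shUCHL1, 41090 and 40780 CPM in shHSPA8 and 30460 and 32370 CPM in shCON. That sum was carried by the collagens COL1A1, COL1A2 and COL3A1, of which COL3A1 had 10210 and 10060 CPM in shUCHL1, 11390 and 12300 CPM in shHSPA8 and 6085 and 5638 CPM in shCON. The contractile markers ACTA2, CNN1 and DES were called lower in shUCHL1. ACTA2 had 534 and 567 CPM in shUCHL1, 1324 and 1150 CPM in shHSPA8 and 1476 and 1805 CPM in shCON. CNN1 averaged 0.850 ± 0.354 in shUCHL1, 18.6 ± 3.14 in shHSPA8 and 12.5 ± 2.43 in shCON (CPM, SD, n = 2 each), and DES had 0.367 and 0.540 CPM in shUCHL1, 7.84 and 7.05 CPM in shHSPA8 and 5.70 and 7.59 CPM in shCON. Of the 16 tested in this list, 3 were called higher and 7 lower in shUCHL1, and 5 higher and 2 lower in shHSPA8, with median log2 fold changes of -0.16 and 0.28. The part of these cell type markers in the lipid gene result was not tested.

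**Figure D2:**
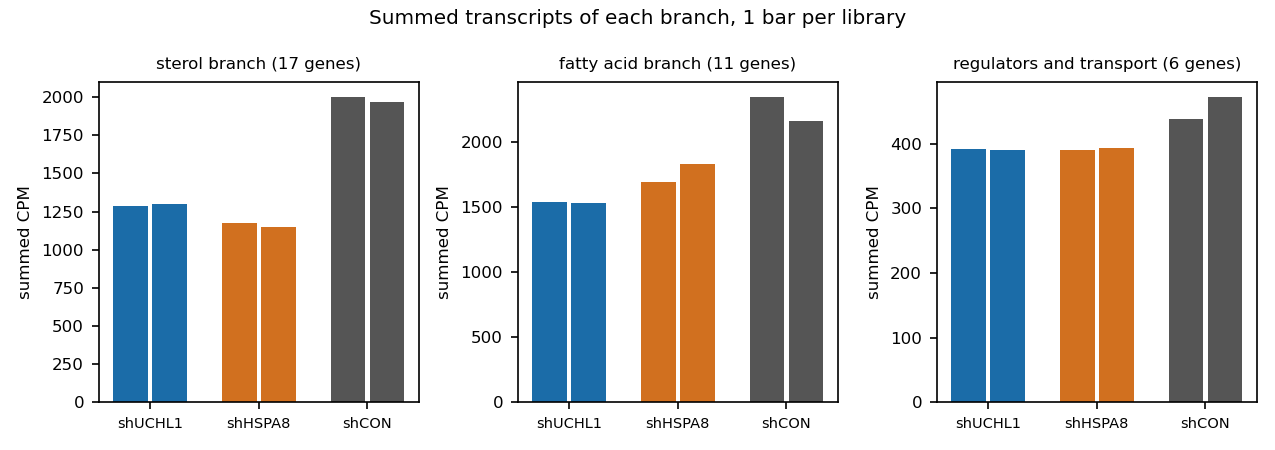
Summed CPM of the sterol branch, the fatty acid branch and the regulators and transport genes, with 1 bar per library. The shUCHL1 and shHSPA8 bars are lower than the shCON bars in all 3 panels, and the sterol sum is lowest in shHSPA8 (1173 and 1149 CPM) while the fatty acid sum is lowest in shUCHL1 (1540.0 and 1529 CPM).

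In the sterol branch, 12 of 17 enzymes were called lower in shUCHL1 and 14 of 17 in shHSPA8, where 7.15% and 6.02% of all tested genes were. The median log2 fold changes were -0.56 and -0.72, and 16 of the 17 lay below 0 in each line. Their summed level was 1285 and 1300 CPM in shUCHL1, 1173 and 1149 CPM in shHSPA8 and 2002 and 1967 CPM in shCON. Of the 7 enzymes that lead to farnesyl and geranylgeranyl diphosphate, 4 were called lower in shUCHL1 and the same number in shHSPA8. Of the 10 enzymes from squalene synthase on, 8 were called lower in shUCHL1 and 10 in shHSPA8.

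HMGCS1, which makes HMG-CoA at the entry of the mevalonate pathway, had 263 and 258 CPM in shUCHL1, 201 and 212 CPM in shHSPA8 and 508 and 412 CPM in shCON. The 3 lines did not overlap, and shHSPA8 was lowest. The log2 fold change was -0.82 (SE 0.11, adjusted p = 0.00378) in shUCHL1 and -1.16 (SE 0.11, adjusted p = 0.000743) in shHSPA8. FDPS, the synthase of farnesyl diphosphate, had 146 and 152 CPM in shUCHL1, 168 and 150.5 CPM in shHSPA8 and 265 and 294 CPM in shCON. All 4 knockdown values lay below both control values, and the knockdown lines overlapped each other. FDPS had a log2 fold change of -0.91 (SE 0.10, adjusted p = 0.00157) in shUCHL1 and -0.81 (SE 0.10, adjusted p = 0.00201) in shHSPA8. These calls of HMGCS1 and FDPS held in every fit that left out 1 library.

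ACAT2 and MVD were called lower in each line. ACAT2, the cytosolic thiolase that joins a pair of acetyl-CoA molecules, averaged 70.3 ± 1.63 in shUCHL1, 81.5 ± 4.58 in shHSPA8 and 114 ± 8.24 in shCON (CPM, SD, n = 2 each), with log2 fold changes of -0.69 (SE 0.10, adjusted p = 0.00451) in shUCHL1 and -0.48 (SE 0.10, adjusted p = 0.0181) in shHSPA8. MVD, which decarboxylates mevalonate diphosphate, averaged 45.8 ± 1.27 in shUCHL1, 51.5 ± 5.33 in shHSPA8 and 76.5 ± 14.0 in shCON (CPM, SD, n = 2 each), with log2 fold changes of -0.74 (SE 0.14, adjusted p = 0.0153) in shUCHL1 and -0.57 (SE 0.14, adjusted p = 0.0402) in shHSPA8. The shCON replicates of MVD lay apart, at 66.6 and 86.4 CPM, and its call in shHSPA8 was lost in 7 of 16 alternative analyses.

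The kinases between them were not called. MVK, the mevalonate kinase, had 30.9 and 32.5 CPM in shUCHL1, 29.8 and 25.9 CPM in shHSPA8 and 32.5 and 40.5 CPM in shCON, and its log2 fold change was -0.20 (SE 0.14, adjusted p = 0.378) in shUCHL1 and -0.39 (SE 0.14, adjusted p = 0.110) in shHSPA8. The shUCHL1 values of MVK came close to the lower control value without crossing it. PMVK, the phosphomevalonate kinase, had 4.15 and 4.44 CPM in shUCHL1, 3.86 and 4.85 CPM in shHSPA8 and 6.08 and 5.88 CPM in shCON, with log2 fold changes of -0.48 (SE 0.17, adjusted p = 0.116) in shUCHL1 and -0.46 (SE 0.17, adjusted p = 0.133) in shHSPA8. All 4 knockdown values of PMVK were under both control values. GGPS1, which makes geranylgeranyl diphosphate for protein prenylation and lies off the route to cholesterol, had 38.6 and 36.0 CPM in shUCHL1, 28.4 and 30.6 CPM in shHSPA8 and 32.3 and 25.5 CPM in shCON. GGPS1 was the only enzyme of the branch with a fold change above 0 in either comparison, at 0.37 (SE 0.14, adjusted p = 0.118) in shUCHL1 and 0.03 (SE 0.14, adjusted p = 0.907) in shHSPA8. It did not pass the test in either line, though both shUCHL1 values lay above both shCON values, and it was called higher in shUCHL1 without shCON replicate 1 (adjusted p = 0.0246).

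After squalene, MSMO1, the methyl sterol oxidase, had 149 and 150.4 CPM in shUCHL1, 116 and 123 CPM in shHSPA8 and 223 and 194 CPM in shCON. The lines did not overlap and shHSPA8 was lowest. Its log2 fold change was -0.48 (SE 0.10, adjusted p = 0.0174) in shUCHL1 and -0.81 (SE 0.10, adjusted p = 0.00209) in shHSPA8. HSD17B7, the keto-reductase of the same demethylation steps, had 12.9 and 12.3 CPM in shUCHL1, 7.02 and 8.99 CPM in shHSPA8 and 21.5 and 17.8 CPM in shCON, again in separate ranges with shHSPA8 lowest. HSD17B7 changed by -0.64 (SE 0.16, adjusted p = 0.0362) on the log2 scale in shUCHL1 and -1.30 (SE 0.17, adjusted p = 0.00278) in shHSPA8. Its call in shUCHL1 was lost in 5 of 16 alternatives, and its call in shHSPA8 in none.

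DHCR7, which reduces 7-dehydrocholesterol to cholesterol as the last step, had 88.9 and 91.7 CPM in shUCHL1, 91.4 and 87.3 CPM in shHSPA8 and 142 and 158 CPM in shCON. The knockdown lines sat at the same height, well under both control values, with log2 fold changes of -0.73 (SE 0.09, adjusted p = 0.00315) and -0.75 (SE 0.09, adjusted p = 0.00250) in shUCHL1 and shHSPA8. LSS, which closes the sterol rings to give lanosterol, had 48.4 and 53.8 CPM in shUCHL1, 46.1 and 42.3 CPM in shHSPA8 and 71.8 and 79.0 CPM in shCON. Both shHSPA8 values were below both shUCHL1 values, and all of these were below shCON. LSS changed by -0.56 (SE 0.11, adjusted p = 0.0142) on the log2 scale in shUCHL1 and -0.77 (SE 0.11, adjusted p = 0.00387) in shHSPA8.

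The epoxidase SQLE, a rate-limiting enzyme after the mevalonate pathway, and the desaturase SC5D were called in shHSPA8 and not in shUCHL1. SQLE had 110.2 and 112 CPM in shUCHL1, 89.3 and 92.3 CPM in shHSPA8 and 139 and 133 CPM in shCON, with log2 fold changes of -0.29 (SE 0.08, adjusted p = 0.0578) in shUCHL1 and -0.58 (SE 0.08, adjusted p = 0.00438) in shHSPA8. SC5D had 84.4 and 85.9 CPM in shUCHL1, 62.4 and 64.5 CPM in shHSPA8 and 117 and 93.0 CPM in shCON, with -0.30 (SE 0.12, adjusted p = 0.148) in shUCHL1 and -0.73 (SE 0.12, adjusted p = 0.00875) in shHSPA8. For both genes the 3 lines did not overlap, and shUCHL1 stood between shHSPA8 and shCON. The difference between shUCHL1 and shHSPA8 did not pass the test in either gene (adjusted p = 0.0601 for SQLE and 0.0612 for SC5D).

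TM7SF2, a sterol reductase, was the least abundant enzyme of the branch and rested on 17 and 24 reads in shUCHL1, 12 and 10 reads in shHSPA8 and 37 and 42 reads in shCON. TM7SF2 changed by -0.98 (SE 0.25, adjusted p = 0.0400) on the log2 scale in shUCHL1 and -1.79 (SE 0.28, adjusted p = 0.00653) in shHSPA8. The first of these calls was lost without any 1 of the 6 libraries. FDFT1, the squalene synthase, averaged 78.5 ± 3.91 in shUCHL1, 70.6 ± 3.31 in shHSPA8 and 111 ± 11.9 in shCON (CPM, SD, n = 2 each). The isomerase EBP averaged 50.7 ± 3.39 in shUCHL1, 51.2 ± 2.98 in shHSPA8 and 84.3 ± 14.4 in shCON and the dehydrogenase NSDHL 63.7 ± 1.10 in shUCHL1, 63.5 ± 0.0312 in shHSPA8 and 91.0 ± 0.106 in shCON (CPM, SD, n = 2 each). Log2 fold changes of these 3 genes in shUCHL1 were -0.50, -0.73 and -0.52 (adjusted p = 0.0228, 0.0126 and 0.00829). In shHSPA8 they were -0.65, -0.72 and -0.52 (adjusted p = 0.00841, 0.0134 and 0.00766).

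Of the 12 sterol calls in shUCHL1, those of HMGCS1 and FDPS held in every fit without 1 library. DHCR7 lost its call without shUCHL1 replicate 1. ACAT2, MVD, FDFT1, LSS, MSMO1, NSDHL and EBP lost theirs without either shUCHL1 library, HSD17B7 also without shCON replicate 1, and TM7SF2 without each library. Adjusted p after these losses ran from 0.0547 to 0.298. Of the 14 sterol calls in shHSPA8, those of HMGCS1, FDPS, SQLE, LSS, MSMO1, HSD17B7 and DHCR7 held in every such fit. FDFT1 and TM7SF2 lost theirs without shHSPA8 replicate 2, SC5D without shHSPA8 replicate 1, and EBP and NSDHL without either shHSPA8 library. ACAT2 lost its call without any 1 knockdown library, and MVD without any of these or shCON replicate 2. Adjusted p after these losses ran from 0.0501 to 0.189. Leaving out a control library also added calls: without shCON replicate 1, MVK was called in shHSPA8 (adjusted p = 0.0259), and without shCON replicate 2, SC5D in shUCHL1 (adjusted p = 0.0192).

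**Figure D3:**
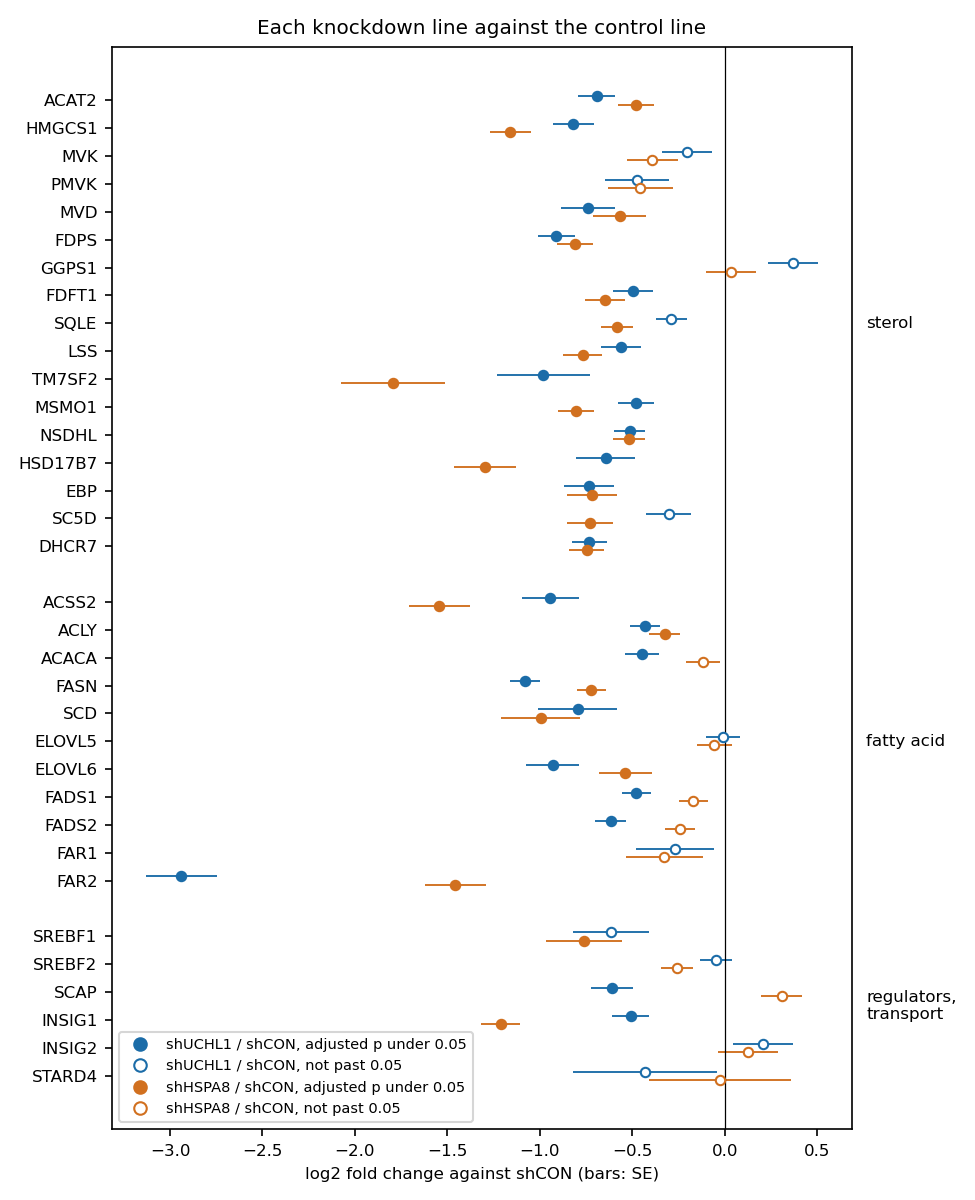
Log2 fold change of each of the 34 genes in shUCHL1 (blue) and shHSPA8 (orange) against shCON, with bars for the SE and filled points for an adjusted p under 0.05. In shHSPA8 all 10 enzymes from FDFT1 to DHCR7 are filled, while ACACA, FADS1, FADS2 and SCAP are filled in shUCHL1 alone.

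In the fatty acid branch, 9 of 11 genes were called lower in shUCHL1 and 6 of 11 in shHSPA8, where 7.15% and 6.02% of all tested genes were. The median log2 fold changes were -0.62 and -0.33, and all 11 lay below 0 in each line. The summed level was 1540.0 and 1529 CPM in shUCHL1, 1689 and 1827 CPM in shHSPA8 and 2343 and 2160.0 CPM in shCON. FASN, the synthase that builds palmitate, had 245 and 248 CPM in shUCHL1, 309 and 323 CPM in shHSPA8 and 505 and 538 CPM in shCON. The 3 lines did not overlap, with shUCHL1 lowest and less than 5 CPM between its replicates. Its log2 fold change was -1.08 (SE 0.08, adjusted p = 0.000356) in shUCHL1 and -0.72 (SE 0.08, adjusted p = 0.00129) in shHSPA8, and both calls held in all 16 alternatives.

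Of the enzymes that supply FASN, ACLY was called lower in each line. ACLY, which splits citrate into cytosolic acetyl-CoA, averaged 189.5 ± 0.174 in shUCHL1, 204 ± 11.9 in shHSPA8 and 256 ± 7.47 in shCON (CPM, SD, n = 2 each), with log2 fold changes of -0.43 (SE 0.08, adjusted p = 0.0147) in shUCHL1 and -0.33 (SE 0.08, adjusted p = 0.0410) in shHSPA8. Its call in shHSPA8 was lost in 8 of 16 alternatives. ACSS2, which makes acetyl-CoA from acetate, had 5.25 and 6.47 CPM in shUCHL1, 3.86 and 3.88 CPM in shHSPA8 and 10.8 and 11.8 CPM in shCON. Here shHSPA8 was lowest and the lines did not overlap, with log2 fold changes of -0.94 (SE 0.16, adjusted p = 0.00820) in shUCHL1 and -1.54 (SE 0.16, adjusted p = 0.00116) in shHSPA8. ACACA, the carboxylase that makes malonyl-CoA in the committed step, had 143 and 144 CPM in shUCHL1, 172 and 188 CPM in shHSPA8 and 204 and 187 CPM in shCON. Only the shUCHL1 values were clear of shCON, and the log2 fold change was -0.45 (SE 0.09, adjusted p = 0.0185) in shUCHL1 and -0.12 (SE 0.09, adjusted p = 0.452) in shHSPA8.

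Desaturases and elongases differed among themselves. FADS2, the delta-6 desaturase, had 194 and 197 CPM in shUCHL1, 262 and 247 CPM in shHSPA8 and 291 and 310.2 CPM in shCON. Its neighbour in the pathway FADS1, the delta-5 desaturase, had 185 and 187 CPM in shUCHL1, 229.7 and 231 CPM in shHSPA8 and 268 and 250.5 CPM in shCON. In both genes shUCHL1 was lowest and shHSPA8 lay between shUCHL1 and shCON. Log2 fold changes in shUCHL1 were -0.62 (SE 0.08, adjusted p = 0.00358) for FADS2 and -0.48 (SE 0.08, adjusted p = 0.00863) for FADS1. In shHSPA8 they were -0.24 (SE 0.08, adjusted p = 0.0975) for FADS2 and -0.17 (SE 0.08, adjusted p = 0.207) for FADS1, neither past the threshold. ELOVL6, which extends palmitate to stearate, had 69.0 and 62.4 CPM in shUCHL1, 80.2 and 92.3 CPM in shHSPA8 and 141 and 109.8 CPM in shCON, with log2 fold changes of -0.93 (SE 0.14, adjusted p = 0.00637) in shUCHL1 and -0.54 (SE 0.14, adjusted p = 0.0461) in shHSPA8. Its lines did not overlap, and the shHSPA8 call was lost in 9 of 16 alternatives.

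SCD, the stearoyl-CoA desaturase, varied between replicates, with 35.9 and 30.5 CPM in shUCHL1, 23.4 and 34.4 CPM in shHSPA8 and 66.1 and 49.3 CPM in shCON. All 4 knockdown values lay below both control values, and the log2 fold change was -0.80 (SE 0.21, adjusted p = 0.0451) in shUCHL1 and -0.997 (SE 0.21, adjusted p = 0.0222) in shHSPA8. The shUCHL1 call of SCD was lost in 7 of 16 alternatives, scaling by library size alone among them. ELOVL5, which elongates polyunsaturated fatty acids, did not pass the test, at 239 and 239 CPM in shUCHL1, 223 and 239.5 CPM in shHSPA8 and 256 and 226 CPM in shCON. Its groups overlapped, with log2 fold changes of -0.01 (SE 0.09, adjusted p = 0.967) in shUCHL1 and -0.06 (SE 0.09, adjusted p = 0.738) in shHSPA8, and the sign of each turned without shCON replicate 1.

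The fatty acyl-CoA reductases FAR1 and FAR2, which make fatty alcohols for ether lipids and waxes, stood apart from each other. FAR2 had 1.04 and 1.26 CPM in shUCHL1, 3.16 and 3.30 CPM in shHSPA8 and 9.24 and 8.51 CPM in shCON, that is 17 and 21 reads in shUCHL1, 50 and 51 reads in shHSPA8 and 146 and 139 reads in shCON. The lines lay far apart in a fixed order, with shUCHL1 lowest. It fell 7.67-fold in shUCHL1, with a log2 fold change of -2.94 (SE 0.19, adjusted p = 0.000290), and 2.74-fold in shHSPA8, with -1.46 (SE 0.16, adjusted p = 0.00149). FAR1, the other form, had 233 and 224 CPM in shUCHL1, 187 and 252 CPM in shHSPA8 and 332 and 219 CPM in shCON. The shCON replicates of FAR1 differed more from each other than the lines did, and the log2 fold change was -0.27 (SE 0.21, adjusted p = 0.449) in shUCHL1 and -0.33 (SE 0.21, adjusted p = 0.351) in shHSPA8.

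Among the 9 fatty acid calls in shUCHL1, those of FASN and FAR2 held without any 1 library. ACSS2 lost its call without shUCHL1 replicate 1, ELOVL6 without shUCHL1 replicate 2, and ACLY, ACACA, FADS1 and FADS2 without either of them. SCD lost its call without either of them and also without shCON replicate 1. Adjusted p after these losses ran from 0.0578 to 0.235. Among the 6 in shHSPA8, those of FASN, ACSS2 and FAR2 held. SCD lost its call without shHSPA8 replicate 1, and ACLY and ELOVL6 without any library except shCON replicate 2. Adjusted p after these losses ran from 0.0556 to 0.242. In shHSPA8, FADS2 was called lower without shCON replicate 1 (adjusted p = 0.0496) and FAR1 without shCON replicate 2 (adjusted p = 0.0426).

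Of the 6 regulators and transport genes, 2 were called lower in shUCHL1 (SCAP and INSIG1) and 2 in shHSPA8 (SREBF1 and INSIG1). Of all tested genes 7.15% and 6.02% were. The median log2 fold changes were -0.47 and -0.14, with 5 of the 6 below 0 in shUCHL1 and 4 in shHSPA8. INSIG1, the sterol-sensitive brake on SCAP, had 28.4 and 29.1 CPM in shUCHL1, 17.3 and 18.1 CPM in shHSPA8 and 39.4 and 42.5 CPM in shCON. The lines did not overlap, with shHSPA8 lowest and shUCHL1 between. Its log2 fold change was -0.51 (SE 0.10, adjusted p = 0.0166) in shUCHL1 and -1.21 (SE 0.10, adjusted p = 0.000489) in shHSPA8, a 2.32-fold fall. INSIG2, its close relative, had 10.6 and 10.8 CPM in shUCHL1, 8.85 and 11.4 CPM in shHSPA8 and 9.75 and 8.88 CPM in shCON. It was not called, with log2 fold changes of 0.21 (SE 0.16, adjusted p = 0.452) in shUCHL1 and 0.12 (SE 0.16, adjusted p = 0.669) in shHSPA8.

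SCAP, the escort of the SREBPs, was the regulator with opposite signs in the knockdown lines. SCAP had 47.3 and 47.4 CPM in shUCHL1, 92.1 and 87.0 CPM in shHSPA8 and 65.7 and 79.1 CPM in shCON. Both shUCHL1 values lay below and both shHSPA8 values above both control values. The log2 fold change was -0.61 (SE 0.11, adjusted p = 0.0129) in shUCHL1, which passed the test, and 0.31 (SE 0.11, adjusted p = 0.119) in shHSPA8, which did not.

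**Figure D4:**
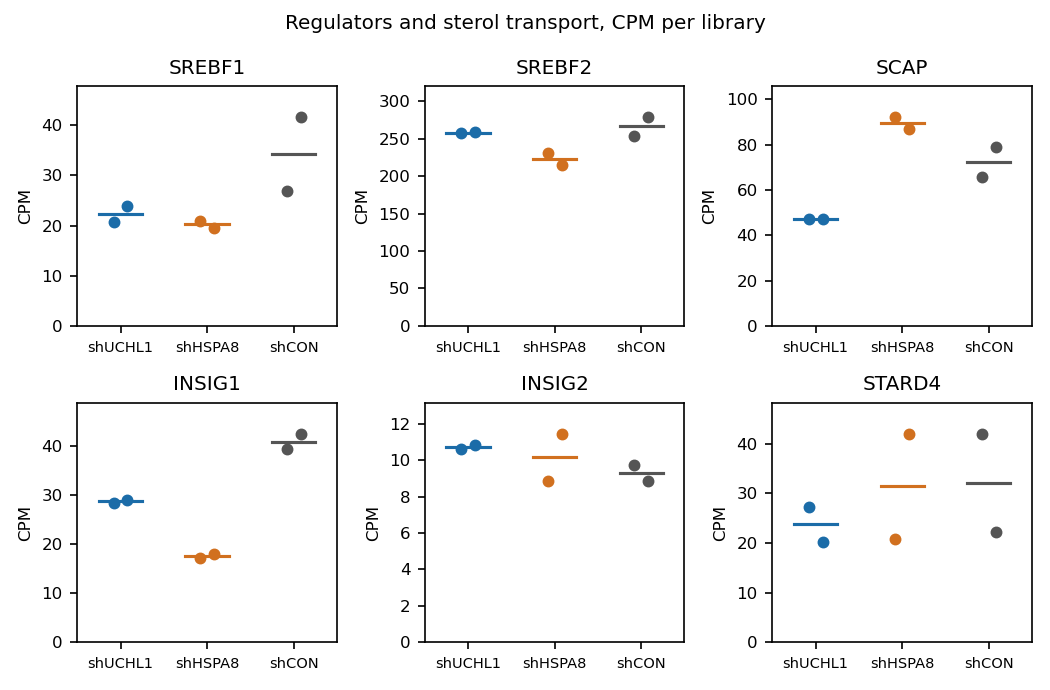
CPM of the 6 regulators and transport genes in each library (points), with the mean of each line (bar). INSIG1 is lowest in shHSPA8, SCAP is lowest in shUCHL1 and highest in shHSPA8, and the STARD4 replicates of shHSPA8 and of shCON lie about as far apart as any lines do.

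Of the SREBP genes, SREBF1 was called in shHSPA8 alone and SREBF2 in neither line. SREBF1 had 20.8 and 23.9 CPM in shUCHL1, 21.0 and 19.5 CPM in shHSPA8 and 26.9 and 41.6 CPM in shCON. All knockdown values lay below both control values, which differed widely from each other. Its log2 fold change was -0.62 (SE 0.20, adjusted p = 0.0871) in shUCHL1 and -0.76 (SE 0.20, adjusted p = 0.0492) in shHSPA8, and the shHSPA8 call was lost in 11 of 16 alternatives. SREBF2 had 257 and 258 CPM in shUCHL1, 230.2 and 215 CPM in shHSPA8 and 254 and 278 CPM in shCON. It was not called, with log2 fold changes of -0.05 (SE 0.09, adjusted p = 0.769) in shUCHL1 and -0.26 (SE 0.09, adjusted p = 0.0942) in shHSPA8, and only the shHSPA8 values lay clear of shCON. The shUCHL1 value of SREBF2 turned its sign when counts were scaled by library size alone. These are transcript levels, and the cleaved, active SREBP proteins were not measured.

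STARD4, which carries cholesterol between membranes, had 27.4 and 20.2 CPM in shUCHL1, 20.9 and 42.0 CPM in shHSPA8 and 42.0 and 22.2 CPM in shCON. Its replicates spread as widely as its lines, and the groups overlapped. Log2 fold changes were -0.43 (SE 0.39, adjusted p = 0.524) in shUCHL1 and -0.03 (SE 0.38, adjusted p = 0.975) in shHSPA8. Without shCON replicate 1 both had the opposite sign. Among the regulators called in shUCHL1, SCAP and INSIG1 lost their calls without either shUCHL1 library (adjusted p from 0.116 to 0.178). In shHSPA8, INSIG1 kept its call without any 1 library, and SREBF1 lost it without any library except shCON replicate 1 (adjusted p from 0.0741 to 0.182). Without shCON replicate 1, SREBF1 was called lower in shUCHL1 (adjusted p = 0.00463) and SREBF2 in shHSPA8 (adjusted p = 0.0367), and without shCON replicate 2, SCAP was called higher in shHSPA8 (adjusted p = 0.0239).

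Set directly against each other, the knockdown lines differed in 7 of the 34 genes, and the 4 called fatty acid genes were all lower in shUCHL1. Of these 4, the calls of FASN, FADS1 and FADS2 were lost when libraries were scaled by library size alone (adjusted p = 0.0717, 0.114 and 0.0695). This comparison leaves the shCON libraries out of the contrast, though not out of the estimate of spread. Of the 34 genes, 2 were called higher and 5 lower in shUCHL1 than in shHSPA8, where 6.20% of all tested genes were called higher and 8.35% lower. That is 5.88% higher and 14.7% lower, so the share called higher was near that of all tested genes. Higher in shUCHL1 were INSIG1, with a log2 ratio of 0.70 (SE 0.11, adjusted p = 0.00701), and HSD17B7, with 0.65 (SE 0.17, adjusted p = 0.0446). Lower in shUCHL1 were SCAP, with -0.92 (SE 0.11, adjusted p = 0.00369), and FAR2, with -1.48 (SE 0.22, adjusted p = 0.00619). So were FADS2, with -0.38 (SE 0.08, adjusted p = 0.0252), FASN, with -0.36 (SE 0.08, adjusted p = 0.0260), and FADS1, with -0.31 (SE 0.08, adjusted p = 0.0434). Of 17 sterol genes, 10 had both shUCHL1 libraries above both shHSPA8 libraries and 2 had them below, and of 11 fatty acid genes 1 had them above and 7 below. Of all 34 genes, 13 had them above and 10 below. Over all tested genes, 33.9% had them above and 31.8% below.

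**Figure D5:**
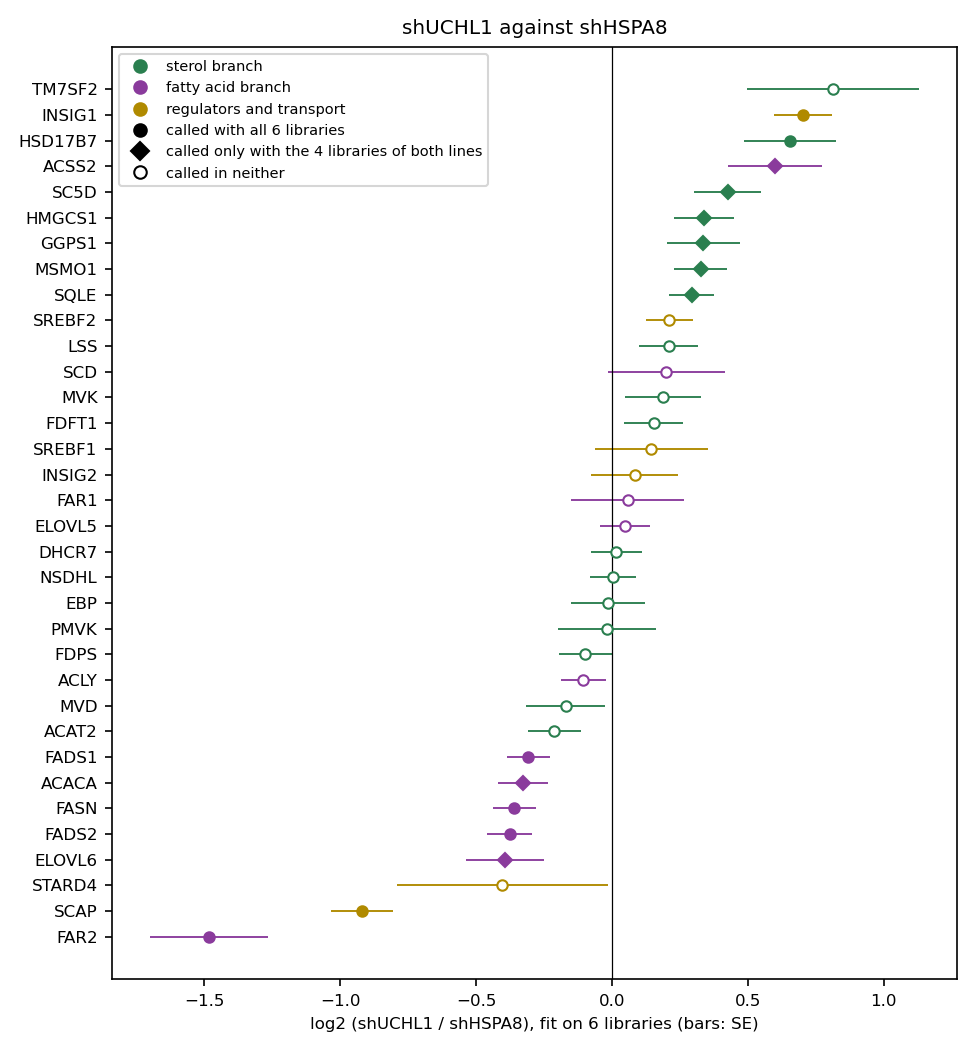
Log2 ratio of shUCHL1 over shHSPA8 for each of the 34 genes, with bars for the SE, coloured by branch and ordered by value. Sterol genes fill most of the upper, positive part and fatty acid genes most of the lower, negative part, with ACSS2 the positive fatty acid gene that was called when the 4 libraries of both lines were fitted alone.

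The spread between shCON replicates entered that estimate and was the largest of the 3 lines. When the 4 shUCHL1 and shHSPA8 libraries were fitted alone, 15 of the 34 genes were called, 8 higher and 7 lower in shUCHL1, where 11.0% of all tested genes were called higher and 13.9% lower. Those higher were the sterol genes HMGCS1, GGPS1, SQLE, MSMO1, HSD17B7 and SC5D with INSIG1 and ACSS2 (adjusted p from 0.00366 to 0.0468). Those lower were the fatty acid genes ACACA, FASN, ELOVL6, FADS1, FADS2 and FAR2 with SCAP (adjusted p from 0.000712 to 0.0308). In that fit the log2 ratio was 0.34 (SE 0.07) for HMGCS1, 0.29 (SE 0.08) for SQLE and 0.42 (SE 0.08) for SC5D. With all 6 libraries these 3 did not pass the test (adjusted p = 0.0850, 0.0601 and 0.0612).

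The balance of higher and lower calls between the knockdown lines depended on the scaling. Scaled by library size alone, which moved the median log2 ratio of all tested genes to 0.12 from 0.02, 7 of the 34 genes were called higher and 2 lower, where 10.6% and 5.84% of all tested genes were. Of the fatty acid genes, FAR2 was then called lower and ACSS2 higher. The branch medians moved with it, to 0.29 for the sterol branch and -0.21 for the fatty acid branch, against 0.19 and -0.31 with TMM. The signs of the 15 genes called in the fit of 4 libraries were the same in all 16 alternatives. These genes were chosen by tests on the same libraries, so their constant signs add nothing to the calls. No gene of the list was called without shUCHL1 replicate 1 or without shUCHL1 replicate 2, 2 were without shHSPA8 replicate 1, 3 without shHSPA8 replicate 2 and 15 without either shCON library. The share of all tested genes called was then 2.00% and 2.17% without shUCHL1 replicates 1 and 2, 4.53% and 6.08% without those of shHSPA8, and 23.9% without either of shCON. Without either shUCHL1 library, SCAP had log2 ratios of -0.92 and -0.93 (adjusted p = 0.0573 and 0.0558) and FAR2 of -1.35 and -1.63 (adjusted p = 0.0787 and 0.0544).

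A ratio within each library does not depend on scaling between libraries. The summed CPM of the sterol branch over that of the fatty acid branch was 0.835 and 0.850 in shUCHL1, 0.695 and 0.629 in shHSPA8 and 0.855 and 0.911 in shCON. On the FPKM scale, per transcript length, the same ratio was 1.68 and 1.75 in shUCHL1, 1.55 and 1.36 in shHSPA8 and 1.79 and 2.03 in shCON. Both shHSPA8 libraries had the lowest ratios on either scale, and the shUCHL1 ratios lay just below those of shCON.

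Levels of different genes were set side by side only per transcript length, as the deposited FPKM. FDPS was the most abundant of the 34 genes in each line, at a mean of 139 FPKM in shUCHL1, 144 FPKM in shHSPA8 and 251 FPKM in shCON. HMGCS1 was second in shUCHL1 and shCON, with 108 FPKM in shUCHL1, 75.8 FPKM in shHSPA8 and 178 FPKM in shCON. In shHSPA8 it ranked behind ELOVL5, which had 99.9 FPKM in shUCHL1, 90.8 FPKM in shHSPA8 and 95.5 FPKM in shCON, and behind FADS2 at 87.8 FPKM in shHSPA8. FAR2 and TM7SF2 were the least abundant, FAR2 with 0.365 FPKM in shUCHL1, 0.955 FPKM in shHSPA8 and 2.65 FPKM in shCON. SREBF2 exceeded SREBF1 in every library on this scale, with means of 53.6 against 24.6 FPKM in shUCHL1, 43.3 against 21.2 FPKM in shHSPA8 and 52.5 against 36.0 FPKM in shCON.

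Replicates differed least in shUCHL1. The median absolute log2 difference between replicates over the 34 genes was 0.05 in shUCHL1, 0.11 in shHSPA8 and 0.15 in shCON. Differences above 0.5 were found for 0 genes in shUCHL1, for STARD4 and SCD in shHSPA8 and for STARD4, FAR1 and SREBF1 in shCON. The widest gap was that of TM7SF2 in shUCHL1, at 0.47, and that of STARD4 in the other lines.

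In 7 lists of neighbouring lipid pathways, the median log2 fold changes ran from -0.23 to 0.14 in shUCHL1 and from -0.08 to 0.18 in shHSPA8. Over all tested genes the median was 0.0094 in shUCHL1 and -0.0032 in shHSPA8. The counts in these lists stand against 8.54% of all tested genes called higher and 7.15% called lower in shUCHL1, and 8.66% higher and 6.02% lower in shHSPA8. Among 20 tested partner genes of SREBP and of sterol sensing, 1 was higher and 0 lower in shUCHL1, and likewise in shHSPA8. That is 5.00% higher and 0% lower in shUCHL1 and 5.00% and 0% in shHSPA8. The gene in shUCHL1 was CREB3L3, a membrane-bound transcription factor of lipid metabolism, with 37 and 34 reads in shUCHL1, 22 and 16 reads in shHSPA8 and 9 and 2 reads in shCON and a log2 fold change of 2.62 (SE 0.48, adjusted p = 0.0119). Its call was lost without either shUCHL1 library (adjusted p = 0.0762 and 0.0589). In shHSPA8 it was MTOR, the growth kinase, with 125 and 122 CPM in shUCHL1, 154 and 170.2 CPM in shHSPA8 and 123 and 119.9 CPM in shCON and a log2 fold change of 0.42 (SE 0.09, adjusted p = 0.0222), and its call was lost without any 1 knockdown library (adjusted p from 0.0559 to 0.149). Among 27 genes of cholesterol transport, storage and efflux, 5 were higher and 2 lower in shUCHL1, and 4 higher and 2 lower in shHSPA8, or 18.5% higher and 7.41% lower in shUCHL1 and 14.8% and 7.41% in shHSPA8. VLDLR, a receptor for lipoproteins, had 31.7 and 33.4 CPM in shUCHL1, 26.4 and 27.7 CPM in shHSPA8 and 10.9 and 9.43 CPM in shCON, with log2 fold changes of 1.68 (SE 0.12, adjusted p = 0.000355) in shUCHL1 and 1.41 (SE 0.12, adjusted p = 0.000495) in shHSPA8. NPC2, which hands cholesterol out of the lysosome, had 98.5 and 102 CPM in shUCHL1, 207 and 189 CPM in shHSPA8 and 83.9 and 92.3 CPM in shCON, and it rose in shHSPA8 by a log2 fold change of 1.17 (SE 0.10, adjusted p = 0.000403). CAV1, the coat protein of caveolae, had 131 and 128 CPM in shUCHL1, 77.9 and 87.5 CPM in shHSPA8 and 138 and 131 CPM in shCON, with a log2 fold change of -0.70 (SE 0.10, adjusted p = 0.00348) in shHSPA8. In these genes the replicates of a line lay close together and the lines named stood clear of shCON. They were named for the lowest p of their list, so this separation adds nothing to the calls.

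Of 23 other genes of fatty acid synthesis and activation, 2 were higher and 1 lower in shUCHL1, and 3 higher and 2 lower in shHSPA8, or 8.70% higher and 4.35% lower in shUCHL1 and 13.0% and 8.70% in shHSPA8. The shares in shUCHL1 were near or below those of all tested genes. ELOVL4, an elongase of very long chains, had 19.9 and 20.5 CPM in shUCHL1, 17.5 and 17.8 CPM in shHSPA8 and 11.4 and 10.8 CPM in shCON, with log2 fold changes of 0.86 (SE 0.11, adjusted p = 0.00349) in shUCHL1 and 0.67 (SE 0.11, adjusted p = 0.00908) in shHSPA8, against the direction of ELOVL6. Each call was lost without replicate 2 of its own line (adjusted p = 0.0527 in shUCHL1 and 0.0564 in shHSPA8). ACSL5, an acyl-CoA synthetase, had 16.7 and 16.3 CPM in shUCHL1, 23.1 and 19.9 CPM in shHSPA8 and 26.3 and 26.3 CPM in shCON, with -0.67 (SE 0.12, adjusted p = 0.0106) in shUCHL1, and lost its call without either shUCHL1 library (adjusted p = 0.101 and 0.110). ACSL6, another acyl-CoA synthetase, rested on 30 and 39 reads in shUCHL1, 4 and 4 reads in shHSPA8 and 9 and 3 reads in shCON, with 2.46 (SE 0.42, adjusted p = 0.00963) in shUCHL1, and lost its call without shUCHL1 replicate 2 (adjusted p = 0.0753).

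Of 36 genes of glycerolipid synthesis and lipid droplets, 3 were higher and 5 lower in shUCHL1, and 3 higher and 4 lower in shHSPA8, or 8.33% higher and 13.9% lower in shUCHL1 and 8.33% and 11.1% in shHSPA8. The shares called higher were near those of all tested genes. GPAT3, which starts triglyceride synthesis, had 42.1 and 42.9 CPM in shUCHL1, 55.2 and 53.1 CPM in shHSPA8 and 19.9 and 19.1 CPM in shCON, with log2 fold changes of 1.12 (SE 0.10, adjusted p = 0.000688) in shUCHL1 and 1.47 (SE 0.10, adjusted p = 0.000161) in shHSPA8. PLIN2, a coat protein of lipid droplets, had 72.5 and 65.2 CPM in shUCHL1, 41.7 and 35.4 CPM in shHSPA8 and 37.0 and 35.2 CPM in shCON and rose by 0.93 (SE 0.12, adjusted p = 0.00289) on the log2 scale in shUCHL1. LPIN1, a phosphatidate phosphatase known as an SREBP target, had 17.0 and 16.6 CPM in shUCHL1, 14.3 and 17.7 CPM in shHSPA8 and 32.1 and 29.8 CPM in shCON. It fell in each knockdown line, with log2 fold changes of -0.88 (SE 0.13, adjusted p = 0.00586) in shUCHL1 and -0.95 (SE 0.13, adjusted p = 0.00390) in shHSPA8, and its shUCHL1 call was lost without either shUCHL1 library (adjusted p = 0.0601 and 0.0647).

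Of 34 genes of fatty acid oxidation, 3 were higher and 0 lower in shUCHL1, and 2 higher and 0 lower in shHSPA8, or 8.82% higher and 0% lower in shUCHL1 and 5.88% and 0% in shHSPA8. The shares called higher were near or below those of all tested genes. CPT1A, the carnitine transferase that admits fatty acids to mitochondria, had 54.5 and 55.8 CPM in shUCHL1, 71.4 and 75.2 CPM in shHSPA8 and 40.8 and 38.1 CPM in shCON. The lines did not overlap, and the log2 fold change was 0.48 (SE 0.09, adjusted p = 0.0153) in shUCHL1 and 0.89 (SE 0.09, adjusted p = 0.00110) in shHSPA8. The shUCHL1 call was lost without either shUCHL1 library (adjusted p = 0.145 and 0.167). PPARGC1A, a coactivator of mitochondrial genes, had 1.77 and 2.28 CPM in shUCHL1, 1.26 and 0.970 CPM in shHSPA8 and 0.886 and 0.490 CPM in shCON and a log2 fold change of 1.55 (SE 0.35, adjusted p = 0.0247) in shUCHL1. Its call was lost without either shUCHL1 library or shCON replicate 2 (adjusted p from 0.0859 to 0.170). HADHB, a subunit of the mitochondrial trifunctional protein, had 97.0 and 94.1 CPM in shUCHL1, 97.7 and 99.4 CPM in shHSPA8 and 76.7 and 77.6 CPM in shCON and a log2 fold change of 0.35 (SE 0.08, adjusted p = 0.0339) in shHSPA8. Its call was lost without any library except shCON replicate 2 (adjusted p from 0.0611 to 0.166).

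Of 21 genes that use isoprenoids for prenylation, ubiquinone and dolichol, 0 were higher and 3 lower in shUCHL1, and 0 higher and 1 lower in shHSPA8, or 0% higher and 14.3% lower in shUCHL1 and 0% and 4.76% in shHSPA8. ICMT, which methylates prenylated proteins, had 63.0 and 63.5 CPM in shUCHL1, 91.0 and 89.4 CPM in shHSPA8 and 87.9 and 91.1 CPM in shCON, with -0.50 (SE 0.09, adjusted p = 0.00956) in shUCHL1. PDSS1, which builds the ubiquinone side chain, had 12.9 and 13.6 CPM in shUCHL1, 17.8 and 17.8 CPM in shHSPA8 and 20.3 and 20.6 CPM in shCON, with -0.63 (SE 0.11, adjusted p = 0.0107) in shUCHL1. Both lost their calls without either shUCHL1 library (adjusted p from 0.0959 to 0.134). FNTA, the shared subunit of the farnesyl and geranylgeranyl transferases, had 59.8 and 62.4 CPM in shUCHL1, 57.7 and 61.7 CPM in shHSPA8 and 77.5 and 78.5 CPM in shCON, with -0.35 (SE 0.09, adjusted p = 0.0396) in shUCHL1 and -0.39 (SE 0.09, adjusted p = 0.0309) in shHSPA8. Its shUCHL1 call was lost without any library except shCON replicate 1 (adjusted p from 0.0648 to 0.321), and its shHSPA8 call without any 1 knockdown library (adjusted p from 0.103 to 0.186). Of 10 genes of ether lipid synthesis, the pathway that uses fatty alcohols, 1 was higher and 0 lower in shUCHL1, and 0 higher and 1 lower in shHSPA8, where 1 gene is 10.0% of the list. TMEM86B, a lysoplasmalogenase, had 49 and 50 reads in shUCHL1, 30 and 27 reads in shHSPA8 and 21 and 27 reads in shCON, with 1.00 (SE 0.22, adjusted p = 0.0225) in shUCHL1, a call lost without either shUCHL1 library or shCON replicate 1 (adjusted p from 0.0672 to 0.159). Its relative TMEM86A had 22.2 and 22.7 CPM in shUCHL1, 13.1 and 11.4 CPM in shHSPA8 and 16.5 and 18.7 CPM in shCON, with -0.52 (SE 0.13, adjusted p = 0.0388) in shHSPA8, a call lost without any library except shCON replicate 1 (adjusted p from 0.0727 to 0.196). GNPAT, which starts ether lipid synthesis, did not pass the test, at 0.26 (SE 0.09, adjusted p = 0.0864) in shUCHL1 and 0.14 (SE 0.09, adjusted p = 0.317) in shHSPA8.

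The authors' deposited table gives its own p-value for each pair of lines, with a test that is not given in the sources used here. In the authors' deposited table, 25 of the 34 genes had a p under 0.05 and a lower value in shUCHL1 than in shCON, and 0 a higher one. In the authors' deposited table, 22 of 34 were lower in shHSPA8 than in shCON by that measure, and 0 higher. Between the knockdown lines, the authors' deposited table, which divides shHSPA8 by shUCHL1, has 7 of 34 lower and 7 higher. The share of all genes past that cutoff was not counted, so these counts have no background beside them. The cutoff is on the authors' own p-value, not on the adjusted p used above, so the counts under each rule are not alike.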

How the data were processed

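RNA sequencing of 6 libraries gave a table whose columns per library are, per the file headers, read counts and FPKM. The deposited values are estimated counts, whole numbers for all 34 genes described and with decimals for 1014 to 1117 genes per library, and were rounded to whole numbers. FPKM, which the authors scaled per transcript length and library size, as the unit's name says, was used as deposited for levels between genes. The p-value columns deposited by the authors were only counted. Per the submitters' processing notes, Trimmomatic 0.36 was used. Not given in the sources used here are the aligner, counting tool, strand setting and genome build, so genes that overlap or have near-identical copies cannot be told apart.

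Of 16599 genes with values, 12665 passed filterByExpr (minimum count 10). They were tested with edgeR 4.0.16 (R 4.3.3): TMM scaling, quasi-likelihood test over all 6 libraries, Benjamini-Hochberg adjustment, threshold 0.05. SE is the absolute log2 fold change over the square root of F. Alternatives used limma 3.58.1 (voom, or log2(FPKM + 1) of the deposited FPKM), DESeq2 1.42.0, other scalings and filters, a transcript length offset, a replicate block, only the 2 lines compared, and leaving out each library. On simulated counts for shUCHL1 against shCON with 12665 genes, the test called 17 of 67 genes changed 1.5-fold, 56 of 67 changed 2-fold, 65 of 66 changed 4-fold and 16 of 12465 unchanged genes. The simulation gave a gene the same spread in all lines, whereas replicate spread in the data differed between lines. Far fewer genes were changed in it than were called in the data, so these rates may not carry over.

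Genes and lists were chosen with earlier results of these data known. Values in every library are given for the 6 regulators and, in each branch, the 6 genes of lowest p and the 2 most abundant uncalled ones. They are also given for each gene called between the knockdown lines, and the other genes of the branches are described as well. From each neighbouring pathway list, the 3 genes of lowest p are named, except for a result that is not reported here. No sequences are shown.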

Additional observations from a re-analysis of the deposited data

Results flagged for a closer look

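For 7 genes of the list, the knockdown lines differed when shUCHL1 was set directly against shHSPA8. The test was the edgeR test used above, with p adjusted over all tested genes and a threshold of 0.05. Of the 34 genes, 2 (5.88%) were called higher and 5 (14.7%) lower in shUCHL1. Of all tested genes, 6.20% were called higher and 8.35% lower, so the share called higher was near that of all tested genes. Each targeted gene had 1 knockdown line, so whether these differences come from the knockdowns or from the lines was not tested. The log2 difference, shUCHL1 minus shHSPA8, was -0.92 for SCAP, -1.48 for FAR2, -0.38 for FADS2, -0.36 for FASN and -0.31 for FADS1. It was 0.70 for INSIG1 and 0.65 for HSD17B7. In each of the 7 genes both libraries of one knockdown line lay outside the range of the other. The genes were chosen by the test of this same contrast, so this separation adds nothing to the calls. Over all tested genes, 33.9% had both shUCHL1 libraries above both shHSPA8 libraries and 31.8% had them below. FADS1, FADS2, FASN and HSD17B7 lost the call when any 1 shUCHL1 or shHSPA8 library was left out, SCAP and FAR2 when either shUCHL1 library was, and INSIG1 when either shUCHL1 library or shHSPA8 replicate 1 was.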

How the results depend on the processing

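Each comparison was recomputed under 16 alternatives. For shUCHL1 against shCON, 1987 genes changed, 1230 with the replicate block and 528 to 2615 without 1 library; of the 34 lipid genes 23 changed, 15 with the block and 5 to 23 without 1 library. For shHSPA8 against shCON, 1859 genes changed, 1131 with the block, 1104 with the 2 lines compared alone and 920 to 2416 without 1 library; of the lipid genes 22 changed, 17 with the block and 13 to 23 without 1 library. For shUCHL1 against shHSPA8, 1843 genes changed, 2871 with the length offset, 923 with the block, 3116 with the 2 lines alone and 257 to 3083 without 1 library; of the lipid genes 7 changed, against 11, 3, 15 and 0 to 15. With the block, 1 fatty acid gene was called lower there, against 4 without it, and FASN, FADS1 and FADS2 lost their calls. For shHSPA8 against shCON, comparing the 2 lines alone takes the shUCHL1 libraries out of the estimate of spread. In that fit 17 of the lipid genes were called lower, where 3.07% of all tested genes were. ACAT2, MVD, ACLY, ELOVL6 and SREBF1 lost their calls in it. The share of higher calls moved from 54.5% to 68.1% with library size alone in the first comparison, and from 42.6% to 64.4% in the third.

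The replicate numbers share no label of a common culture or day. Replicate differences correlated across 12665 genes at r = 0.23 between shUCHL1 and shCON, -0.54 between shHSPA8 and shCON and -0.23 between shUCHL1 and shHSPA8. Across the 34 lipid genes alone, these values were stronger, at 0.65, -0.84 and -0.69. The signs differed between pairs of lines, so the numbers were not taken to pair the libraries. With log2 transcript length, the difference of replicate 1 from replicate 2 correlated over 11595 genes at r = 0.17 in shUCHL1, -0.39 in shHSPA8 and 0.44 in shCON. Over the 34 lipid genes these values were -0.0039, 0.096 and 0.11. The cause of the replicate differences was not tested.

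Signs turned only for log2 fold changes that had not passed the test. In shUCHL1, library size alone turned ELOVL5 to 0.0703 and SREBF2 to 0.0306, and FPKM turned them to 0.0670 and 0.0296. In shHSPA8, the block turned STARD4 to 0.00879. Leaving out 1 library gave values on either side of 0 in shUCHL1 for ELOVL5 (-0.100 to 0.0603), FAR1 (-0.542 to 0.0362), SREBF2 (-0.136 to 0.0169) and STARD4 (-0.823 to 0.0771). In shHSPA8 it did so for GGPS1 (-0.130 to 0.191), ELOVL5 (-0.147 to 0.0172), INSIG2 (-0.0737 to 0.297) and STARD4 (-0.615 to 0.486). Apart from the fits that leave out a library by construction, the cause was not tested. A planned count of promoter motifs was not run. With 2 libraries a line, changes near 1.5-fold were often missed on simulated counts.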
